A study of Mus musculus with 23 samples.

Results

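Potassium channel genes are the 93 mouse genes whose symbol begins with Kcn and names a channel subunit, out of 35385 symbols in the 3 deposited expression tables; antisense genes were left out. Members were taken by symbol alone and not by any measured value, although the family was chosen with earlier results of these data known. They comprise 30 voltage-gated pore subunits (Kcna, Kcnb, Kcnc, Kcnd, Kcnh, Kcnq) and 10 modifier subunits that form no channel alone (Kcnf, Kcng, Kcns, Kcnv). A further 12 are auxiliary subunits (Kcnab, Kcne, Kcnip), 15 are inward rectifiers (Kcnj) and 14 are K2P leak channels (Kcnk). The last 12 are genes of calcium- or sodium-activated channels and related subunits (Kcnma, Kcnmb, Kcnn, Kcnt, Kcnu).

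Messenger RNA was sequenced in 23 libraries of oligodendrocyte lineage cells made in culture from mouse epiblast stem cells (lines EpiSC5 and 129O1, strains 129SvEv and 129S1/SvImJ). Oligodendrocyte progenitor cells (OPCs) and O1-positive oligodendrocytes (OLs), each isolated on magnetic beads, gave 3 libraries each; differentiation medium contained the thyroid hormone T3. The other 17 libraries came from OPCs infected with a lentiviral CRISPR vector and selected with puromycin at 500 ng/mL for 96 h. Control cells therefore carried the vector with a non-targeting guide (sgNTC), and targeted cells carried guide g1 or g2 against Sox6, the gene of a DNA-binding SOX protein. Cells were then held for 60 h in growth medium with bFGF and PDGFA ("OPC": 3 control, 2 guide 1 and 3 guide 2 libraries) or in differentiation permissive medium without T3 ("OL": 3 libraries of each). The OL cultures were not sorted, so they are mixtures, and all infected cells came from one batch of OPCs. Nothing in the labels says that replicates were separate cultures, so p-values measure the spread between these libraries, which may be technical. Libraries of a group are named A to C after the table columns, and these letters are not the replicate numbers of the labels.

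Potassium channels let potassium leave or enter cells and so set the resting potential and end action potentials. In glia, inward rectifiers such as Kir4.1 (Kcnj10) hold the membrane near the potassium equilibrium and take up potassium released by axons. OPCs are known for large voltage-gated A-type and delayed rectifier currents and for Kir currents that grow as they mature.

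The 8 OPC libraries held 13967438 to 16958611 counts each and the 9 OL libraries 13124580 to 18551822; the depth of the sorted libraries is unknown because only TPM (a level per transcript length, scaled to the library) was used for them. Sox6, the targeted gene, was measured at 163 to 235 CPM (counts scaled to a common library size, not per length) in control OPC libraries and 67.5 to 91.1 in the targeted ones; in OLs it was at 385 to 436 CPM against 155 to 259. Some libraries stood apart from their groups. In guide 1 OL library B the ratio of each gene to the other libraries of its group fell with transcript length (Spearman's rho -0.66 across 8393 genes, a description since genes are not replicates), and its summed TPM of the 93 genes was 328 against 615 and 620 in guide 1 OL libraries A and C. Control OPC libraries A and C had rho of -0.47 and 0.49. Counts of channel genes called are given with and without these libraries.

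The cell labels were compared with marker genes. The summed TPM of 8 oligodendrocyte markers was 26287 to 26529 in sorted OLs, 1225 to 1386 in control OLs and 64.7 to 81.9 in control OPCs, with Mog at 0 in both control groups. The OPC marker Pdgfra stood at 4.94 ± 1.16 TPM in control OPCs and 27.6 ± 4.03 in control OLs (SD, n = 3). Lhfpl3 and Ptprz1 also had higher means in control OLs (113 and 940 TPM) than in control OPCs (40.0 and 668). These genes thus did not mark the OPC label there. Of the 6 OPC markers tested, 3 were higher and 3 lower in control OLs. Olig1, Olig2 and Cspg4 were present in both groups. The summed TPM of 10 astrocyte markers, mostly Apoe and Aldoc, was 625 to 719 in control OPCs and 4950 to 5423 in control OLs. The marker lists of microglia, fibroblasts or pericytes, Schwann cells and endothelium each summed to at most 5.52 TPM in any library. The highest sum was of Schwann cell markers in sorted OLs. Of the 2 Schwann cell markers tested in sorted cells, 1 was higher in OLs and 1 lower. In such bulk samples, fewer cells of a type and less RNA per cell cannot be told apart.

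Windows at the RefSeq start are printed here for the 5 channel genes that passed the test in both OPCs and OLs after Sox6 targeting. SOX factors bind DNA, and the change of these genes is the base of the SOX6 results. Each is 300 bases (250 before and 50 after the RefSeq start; build GRCm38.p6), read 5′ to 3′ on the gene's strand, with CG pairs in capitals. They lie at chr11:110967783-110968082 (Kcnj16, + strand), chr11:111065914-111066213 (Kcnj2, + strand), chr3:107458849-107459148 (Kcnc4, - strand), chr6:21215096-21215395 (Kcnd2, + strand) and chr6:126740625-126740924 (Kcna6, - strand). For Kcnc4 the RefSeq start lies 654 bases downstream of the GENCODE start, so the whole printed window lies inside the GENCODE gene span. Its letters are thus not those before its GENCODE start. For Kcnd2 the RefSeq start lies 157 bases upstream of the GENCODE start.
Kcnj16: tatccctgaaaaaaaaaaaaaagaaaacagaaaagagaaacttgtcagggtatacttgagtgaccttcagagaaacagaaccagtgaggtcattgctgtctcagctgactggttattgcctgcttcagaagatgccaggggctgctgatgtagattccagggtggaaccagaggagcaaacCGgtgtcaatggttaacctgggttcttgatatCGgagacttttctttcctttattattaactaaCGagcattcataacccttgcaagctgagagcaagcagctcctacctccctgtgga
Kcnj2: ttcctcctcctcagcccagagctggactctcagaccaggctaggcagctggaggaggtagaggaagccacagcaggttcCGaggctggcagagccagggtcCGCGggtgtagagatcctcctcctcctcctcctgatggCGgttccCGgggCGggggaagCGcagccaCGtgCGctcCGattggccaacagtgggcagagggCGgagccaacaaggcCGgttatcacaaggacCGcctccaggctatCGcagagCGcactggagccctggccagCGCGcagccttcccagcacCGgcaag
Kcnc4: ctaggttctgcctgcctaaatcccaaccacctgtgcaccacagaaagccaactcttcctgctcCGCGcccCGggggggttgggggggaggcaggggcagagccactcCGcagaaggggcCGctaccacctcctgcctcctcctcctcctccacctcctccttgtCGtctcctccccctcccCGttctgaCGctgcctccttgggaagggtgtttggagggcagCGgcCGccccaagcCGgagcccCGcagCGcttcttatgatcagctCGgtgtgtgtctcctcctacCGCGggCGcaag
Kcnd2: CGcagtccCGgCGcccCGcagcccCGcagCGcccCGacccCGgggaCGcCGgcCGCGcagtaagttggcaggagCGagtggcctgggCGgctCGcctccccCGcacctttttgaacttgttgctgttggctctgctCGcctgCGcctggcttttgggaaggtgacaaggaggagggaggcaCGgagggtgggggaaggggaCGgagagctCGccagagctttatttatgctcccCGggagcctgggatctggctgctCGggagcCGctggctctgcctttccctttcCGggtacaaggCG
Kcna6: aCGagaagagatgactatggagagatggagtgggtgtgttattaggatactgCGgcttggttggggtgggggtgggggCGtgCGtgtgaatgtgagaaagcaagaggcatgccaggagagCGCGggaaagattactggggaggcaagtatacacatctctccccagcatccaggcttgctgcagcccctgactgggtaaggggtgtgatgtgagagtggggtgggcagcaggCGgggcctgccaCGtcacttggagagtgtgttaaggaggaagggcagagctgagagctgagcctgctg
The number of CG pairs was 3 in the Kcnj16 window and 8 in that of Kcna6, against 17 in Kcnc4, 18 in Kcnj2 and 26 in Kcnd2. Over 32851 RefSeq promoters of this length the median was 7 and the quartiles 3 and 20. None of the 5 windows held the SOX core letters AACAAT or, on the other strand, ATTGTT. Of all such promoters 10.7% held them, as did 6 of the 93 promoters listed for 68 of the channel genes. The absence of these letters from a window says nothing about binding of SOX6.

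In mm10 with GENCODE M21, Kcnj16 spans chr11:110968033-111027968 and Kcnj2 chr11:111066164-111076821, 38.2 kb apart on the same strand. Kcnc4 spans chr3:107438303-107459552, Kcnd2 chr6:21215503-21729805, Kcna6 chr6:126708329-126740674 and Kcna1 chr6:126640397-126646384. Kcna6 lies 61.9 kb from Kcna1 on chromosome 6, and Kcnj9 lies 11.9 kb from Kcnj10 on chromosome 1. On chromosome 3, Kcna2 lies 323.3 kb from Kcnc4.

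Of the 93 genes, 34 had a mean of at least 1 TPM in sorted OPCs, 30 in sorted OLs, 32 in control OPCs and 37 in control OLs. Their summed level was 288.7 ± 5.29 TPM in sorted OPCs and 514 ± 62.4 in sorted OLs, and 351 ± 48.2 in control OPCs and 560 ± 3.48 in control OLs (SD, n = 3). In OPCs of both sets the same 4 genes had the highest mean TPM, although in control OPCs the fourth, Kcnd2 (19.3 to 24.1), overlapped with Kcnc1 (18.9 to 25.3). Kcnd3, an A-type pore subunit (Kv4.3), stood at 45.5 ± 1.70 in sorted and 64.8 ± 12.9 in control OPCs. Kcnj16 (Kir5.1), which pairs with Kir4.1, followed at 34.2 ± 5.75 and 48.4 ± 4.46. Kcnj10 and the A-type subunit Kcnd2 (Kv4.2) came next, at 26.1 ± 6.40 and 20.0 ± 2.69 in sorted OPCs, where their libraries overlapped (21.8 to 33.5 and 17.2 to 22.6).

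**Figure D1:**
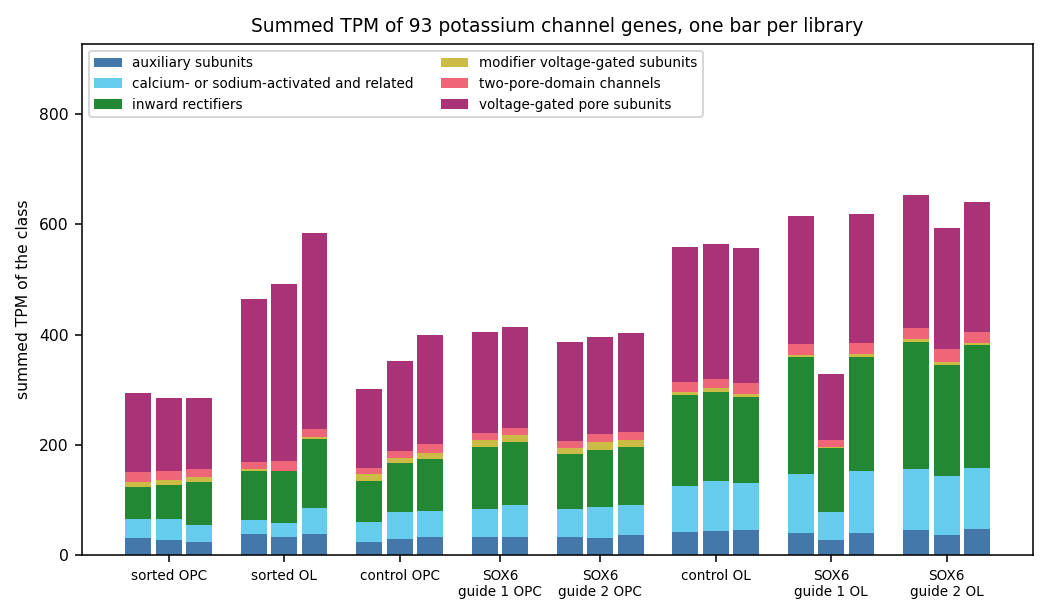
Summed TPM of the 93 potassium channel genes by class, with 1 stacked bar per library in the 8 groups. The voltage-gated pore subunits reach 294 to 355 TPM in the sorted OL libraries against 129 to 144 in sorted OPCs, and the bar of guide 1 OL library B is shorter than its neighbours.

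In sorted OLs the order was different. Kcna1 (Kv1.1) led with 199 ± 24.5 TPM, which was 38.8% of the summed level, followed by Kcnj10 at 82.8 ± 13.6 and Kcna2 (Kv1.2) at 57.5 ± 3.61. In control OLs Kcnj10 led at 90.0 ± 0.21 TPM and Kcnd2 followed at 79.7 ± 2.03, then Kcnj16 at 63.8 ± 2.89 and Kcnd3 at 50.1 ± 1.63, with no overlap between libraries of these 4 genes. Voltage-gated pore subunits made up 63.2% of the summed TPM in sorted OLs and 46.8% in sorted OPCs, against 43.7% in control OLs and 47.9% in control OPCs.

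The first comparison was of sorted OLs with sorted OPCs. Among the channel genes tested, a few were far above the OPC level in sorted OLs, led by Kcna1 and Kcna2, while most others were lower. The rest of the 93 were too low to be tested. Of 39 channel genes tested, 12 were higher and 20 lower in OLs. Over all 11900 genes tested, 60.2% passed, 26.3% higher and 33.8% lower, so many calls were the rule in this comparison. The median log2 change was -0.56 for the 39 and -0.14 for all genes. Tests were limma's on log2(TPM + 1) with Benjamini-Hochberg adjustment over all genes, and log2 changes on this scale understate those of low genes. Without any 1 sorted OL library, 6 genes passed as higher, because genes low in OPCs, Kcna1 among them, then missed the filter of 3 libraries. Without sorted OPC library A, B or C the genes lower numbered 11, 11 and 13. Genes low in OLs, Kcng1 among them, then missed the same filter, and 32 channel genes were tested in each case. Some rises and falls were thus tested only through the group where the gene was high.

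Kcna1 was at 0.23, 0.08 and 0.14 TPM in the sorted OPC libraries and at 175, 199 and 224 in the sorted OL libraries. The log2 change was 7.44 ± 0.12 (SE; limma adjusted p = 7.87e-07), the largest among the channel genes tested in this comparison. Kcna1 is the gene given as the mark of this family here, and in sorted OPCs it was close to absent.

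Kcna2 read 3.58, 3.10 and 2.86 TPM in sorted OPCs and 53.5, 58.6 and 60.4 in sorted OLs, a log2 change of 3.81 ± 0.11 (SE; limma adjusted p = 3.52e-06). Kcna6 (Kv1.6) read 2.20, 2.12 and 2.42 TPM against 19.4, 22.01 and 17.3. Thus 3 Kv1 pore subunits, which assemble with one another into tetramers, rose together with no overlap of libraries. Kcna5 was at 0.23 ± 0.02 TPM in sorted OPCs and 0.95 ± 0.29 in sorted OLs, and Kcna4 at 0.07 ± 0.08 and 0.15 ± 0.02, both too low to be tested.

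Among auxiliary subunits, Kcnip2 (KChIP2), which binds Kv4 channels, rose from 1.14, 0.41 and 0.45 TPM to 25.7, 16.4 and 18.5, a log2 change of 3.67 ± 0.23. The Kv4 subunits themselves fell. Kcnd3 read 46.8, 46.2 and 43.6 TPM in sorted OPCs and 18.6, 17.3 and 19.01 in sorted OLs, and Kcnd2 read 20.4, 17.2 and 22.6 against 5.33, 4.57 and 6.00. Their log2 changes were -1.27 ± 0.09 and -1.74 ± 0.14 (SE; limma adjusted p = 7.25e-05 and 1.26e-04). Kcnip3 also fell, by 1.53 on the log2 scale. Kcne1, an auxiliary subunit of Kcnq channels, was listed at 0 in all 3 sorted OPC libraries and at 2.56, 1.501 and 1.98 TPM in sorted OLs.

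The inward rectifiers divided. Kcnj10 rose from 21.8, 23.1 and 33.5 TPM to 73.3, 76.7 and 98.4, a log2 change of 1.64 ± 0.20 (SE; limma adjusted p = 7.03e-04). Its partner Kcnj16 fell from 31.1, 30.7 and 40.8 TPM to 7.26, 8.81 and 16.5, a log2 change of -1.64 ± 0.30 (SE; limma adjusted p = 0.0037). Kcnj10 thus stood below Kcnj16 in mean TPM in sorted OPCs and above it in every sorted OL library. Kcnj3 and Kcnj9, which encode G-protein-gated GIRK subunits, rose to 1.351 ± 0.32 and 2.40 ± 0.38 TPM. Kcnj13 rose to 2.25 ± 0.69 TPM, but lies within Gigyf2 on the other strand, and the library kit does not mark strand.

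Kcnk1 (TWIK-1) was the K2P gene that rose, from 1.68 ± 0.37 to 8.11 ± 2.12 TPM, while 4 other K2P genes fell, among them Kcnk5, which went from 4.35 ± 1.37 to 0.45 ± 0.11. Kcnn2 (SK2) had 11.02, 14.0 and 31.0 TPM in the sorted OL libraries against 5.52 to 6.996 in sorted OPCs; its change was not past the threshold without 2 of the 6 libraries in turn. Kcnq3, an M-current subunit, rose from 0.72 ± 0.11 to 3.24 ± 0.11. The largest falls by log2 change were of Kcnmb4, a subunit of BK channels (5.84 ± 1.22 to 0.31 ± 0.17 TPM), the modifier Kcng1 (4.25 ± 1.30 to 0.08 ± 0.05), the Kv3 subunit Kcnc4 (6.93 ± 2.75 to 0.82 ± 0.62) and Kcnh2, the ERG channel (13.5 ± 1.72 to 2.75 ± 0.79). Kcnc1, Kcnv1 and Kcnn4 fell as well, with log2 changes of -1.81, -1.78 and -1.27.

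**Figure D2:**
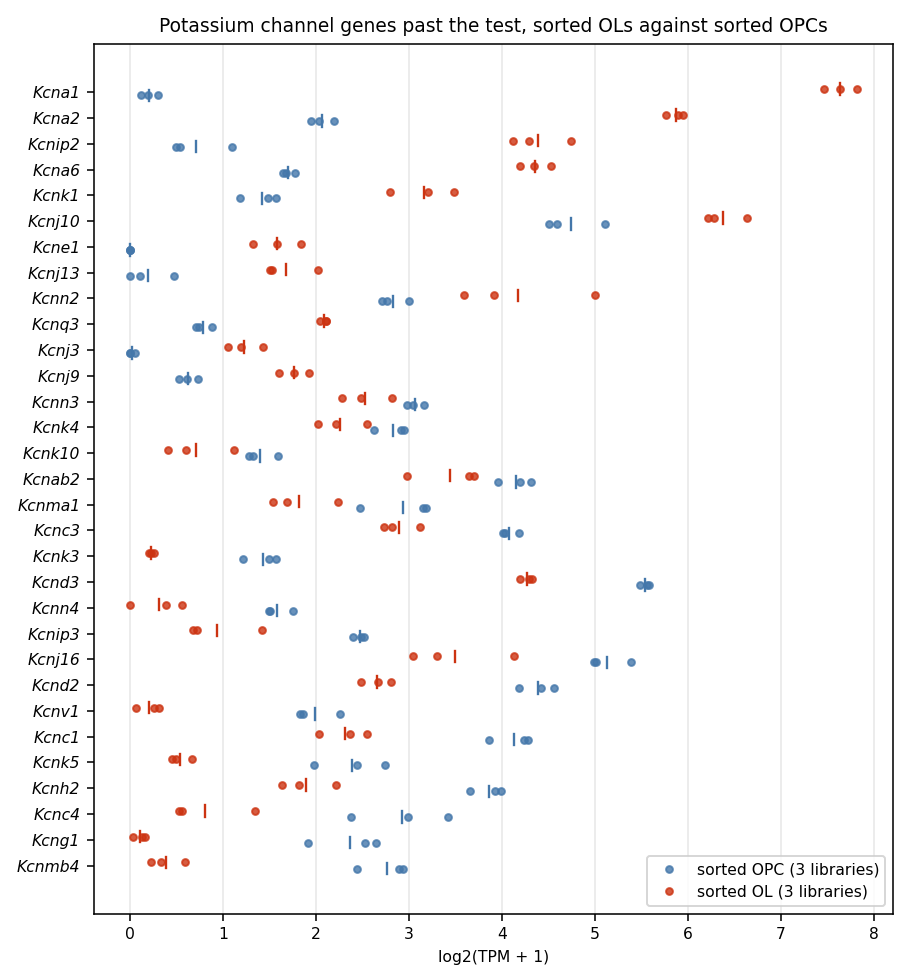
log2(TPM + 1) of 31 of the channel genes past the test in sorted cells, with 1 point per library and a tick at each group mean, ordered by log2 change. Kcna1 at the top separates the groups by 7.44, and the libraries of the groups do not overlap for any gene shown.

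The sorted OL libraries also varied in astrocyte markers, which summed to 1133 to 3114 TPM against 527 to 594 in sorted OPCs (3 of 8 tested higher, 2 lower; Gfap averaged 193 TPM in OLs and Gjb6 was at 0 in OPCs). Their part in the rise of Kcnj10, which astrocytes also express, was not tested.

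Genes that work with potassium channels were taken from a list of 37 pumps, cotransporters, partners and connexins. Of 23 tested in sorted cells, 11 were higher and 4 lower. Lgi3, a secreted partner of Kv1 channel complexes, went from 1.66 to 221 mean TPM and Gjc3 (connexin 29) from 13.6 to 1074. Hcn2, a cation channel opened by hyperpolarisation, went from 1.58 to 27.2.

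Control OLs were next compared with control OPCs of the SOX6 experiment, on counts and with edgeR's quasi-likelihood test. Stage and deposited table coincide here, so they cannot be told apart. Of 67 channel genes tested, 23 were higher and 10 lower in OLs (edgeR, adjusted over all 14352 genes). Over all genes, 43% passed, 21.4% higher and 21.6% lower. The median log2 change was 0.26 for the channel genes and 0.02 for all genes. Without control OPC library A, 20 channel genes were higher and 10 lower, and without library C, 23 and 10; without guide 1 OL library B, which shares this fit, they were 24 and 11.

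In contrast to sorted OLs, Kcna1 stayed near the floor in these cultures, with 11, 13 and 16 counts in the control OL libraries and 4, 7 and 6 in control OPCs. Its log2 change of 1.16 ± 0.76 was not past the threshold (edgeR adjusted p = 0.245), and its mean of 0.26 TPM in control OLs compares with 199 TPM in sorted OLs, from tables that were made separately. Kcna2 did rise, from 28.7, 36.5 and 33.0 CPM to 159, 174 and 170, a log2 change of 2.35 ± 0.18 (SE; edgeR adjusted p = 8.82e-08). Kcna6 rose from 5.88, 7.74 and 8.28 CPM to 38.3, 40.1 and 38.3. Kcna4, at 0.93 CPM in control OLs, also passed (log2 change 2.17).

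Kcnq3, the M-current subunit gene that was also higher in sorted OLs, went from 6.74, 7.68 and 7.64 CPM to 40.7, 34.5 and 36.6. The log2 change was 2.34 ± 0.21 (SE; edgeR adjusted p = 5.06e-07), and its control OL libraries lay far above those of control OPCs. Kcnip2 rose from 0.57, 1.56 and 1.63 CPM to 12.4, 11.6 and 11.8.

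The GIRK gene Kcnj3 had 0 counts in all 3 control OPC libraries and 54, 56 and 39 counts in control OLs, at least 46.6-fold higher against a floor of 3 counts over the group. Kcnj10 rose from 139, 157 and 163 CPM to 414, 415 and 406 (log2 change 1.43 ± 0.12; edgeR adjusted p = 3.2e-07), and Kcnj9 rose to 3.90 CPM from 1.09. Astrocyte markers rose with them, 6 of 9 tested being higher in control OLs and their summed TPM being 4950 to 5423 against 625 to 719. Gjb6 averaged 0.30 TPM and Gfap 1.22 TPM in control OLs. Of 9 neuron markers tested, 3 were higher and 0 lower, and the list summed to 75.4 to 80.0 TPM against 33.2 to 38.4. Most of the control OL sum was Tubb3, at a mean of 48.2 TPM against 16.8 in control OPCs and 50.3 in sorted OLs. Syt1 and Stmn2 averaged 0.22 and 0.04 TPM in control OLs, and Slc17a6 was at 0 in control OPCs. The part of astrocytes and neurons in the channel changes was not tested.

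The SK genes Kcnn2 and Kcnn3 reached 62.9 and 116 mean CPM in control OLs from 19.9 and 38.4. The K2P gene Kcnk10 (TREK-2) went from 3.08, 2.31 and 2.27 CPM to 20.3, 19.8 and 19.02. Kcnip1 also rose (1.30 to 4.21 CPM), but it overlaps Kcnmb1 on the other strand. The falls were led by Kcng1, from 21.6, 21.4 and 21.0 CPM to 1.28, 0.95 and 1.08, and by Kcnk5, from 13.4, 11.1 and 11.8 to 1.74, 1.51 and 1.15. Kcnmb4, Kcnn4, Kcng3, Kcnc1, Kcnv1, Kcnd3, Kcnh2 and Kcnab2 fell by between 2.75 and 0.27 on the log2 scale. Among the 28 partner genes tested, 8 were higher and 7 lower; Gjc3 rose by a log2 change of 3.35, and Dpp6 and Dpp10, both partners of Kv4 channels, rose by 2.69 and 2.31, and Gja1 (connexin 43, which astrocytes also express) by 2.21.

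Of 37 channel genes tested in both OL against OPC comparisons, 25 passed in both: 8 were higher in both, 9 lower in both, and 8 had opposite directions. Over all 11655 genes tested in both, 4034 passed in both and 514 of these (12.7%) had opposite directions, 312 of them higher in control OLs and lower in sorted OLs; whether the channel genes differ from this share was not tested. The genes higher in both were Kcna2, Kcna6, Kcnip2, Kcnj10, Kcnj3, Kcnj9, Kcnn2 and Kcnq3. All 8 genes with opposite directions were higher in control OLs and lower in sorted OLs. Kcnd2 was the most even of them: it rose from 98.35, 111 and 109 CPM to 355, 352 and 332 in culture (log2 change 1.71 ± 0.07; edgeR adjusted p = 7.97e-11) and fell in sorted cells by 1.74. Others were Kcnj16, Kcnc4, Kcnk10, Kcnn3, Kcnk3 and Kcnma1, of which the last 2 are named because of this pattern. Kcnj16 rose by only 0.26 on the log2 scale in culture, and that call was lost without 2 of the 17 libraries in turn (highest edgeR adjusted p 0.0589). The difference between the sets was not tested. The OLs of the 2 sets also differ in T3, in sorting for O1 and in viral infection, and these cannot be told apart.

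**Figure D3:**
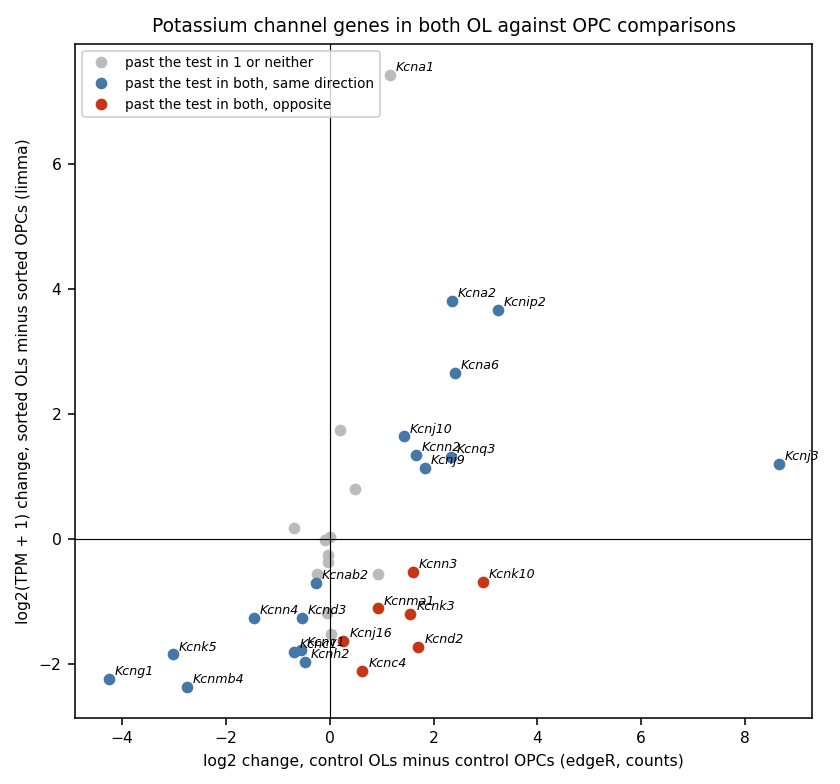
log2 change of control OLs against control OPCs (horizontal, edgeR) and of sorted OLs against sorted OPCs (vertical, limma on log2(TPM + 1)) for 36 of the channel genes tested in both. The 7 genes in red lie at the lower right, Kcna1 lies at the top without a call in culture, and the fitted 8.65 of Kcnj3 depends on the prior count because its control OPC libraries had 0 counts.

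The third question was what followed targeting of Sox6. In OPC medium, 6 channel genes rose and 2 fell out of 57 tested (edgeR, mean of both guides minus control). Over all 13358 genes, 3.59% passed, 1.95% higher and 1.63% lower, so 14% of the channel genes tested were called against that share. In differentiation permissive medium, 6 rose and 5 fell of 63 tested, or 17.5%. Over all 13447 genes the share was 6.5%, with 3.13% higher and 3.37% lower. The median log2 change of the channel genes was 0.08 in both stages, with medians of all genes at -0.005 and -0.001. In each case listed, both guides moved the gene in the same direction and targeted libraries did not overlap with control libraries. These genes were called from the same libraries, so the lack of overlap here and below describes them and is no separate support. The share of all genes without overlap was not counted.

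Of 55 channel genes tested in both stages, 5 passed in both and kept their direction: Kcnj2, Kcnj16 and Kcnc4 rose, and Kcnd2 and Kcna6 fell. They are 62.5% of the 8 called in OPCs and 45.5% of the 11 called in OLs. Over all genes, 214 passed in both stages with the same direction, 44.7% of the 479 called in OPCs and 24.5% of the 874 called in OLs. Their windows at the RefSeq start are those printed above.

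Kcnc4, a Kv3 pore subunit, read 27.8, 24.9999 and 30.7 CPM in control OPCs, 47.7 and 47.1 with guide 1 and 52.4, 47.8 and 53.1 with guide 2. The log2 change was 0.82 ± 0.08 (SE; edgeR adjusted p = 0.00138). In OLs it read 40.6, 42.4 and 45.8 CPM in controls, 73.0, 56.9 and 71.4 with guide 1 and 58.3, 67.7 and 65.6 with guide 2, a log2 change of 0.61 ± 0.10. All targeted libraries lay above all controls in both stages. The OL call was lost without control library A or B, where the highest adjusted p was 0.0651.

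The A-type subunit gene Kcnd2 read 97.1, 111 and 109 CPM in control OPCs, 73.8 and 73.9 with guide 1 and 69.1, 70.1 and 75.04 with guide 2 (log2 change -0.54 ± 0.06; edgeR adjusted p = 0.00241). In OLs the control libraries held 354, 351 and 330 CPM, those of guide 1 held 257, 228 and 260, and those of guide 2 held 271, 254 and 272 (log2 change -0.43 ± 0.07). In each stage every targeted library lay below every control library. Without OL control library A or B the call was lost, with an adjusted p of at most 0.0561. The other A-type gene, Kcnd3, which led in control OPCs, was not called in either stage.

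Kcnj16 read 152, 167 and 164 CPM in control OPCs against 201 and 210 with guide 1 and 186, 202 and 203 with guide 2 (log2 change 0.32 ± 0.05; edgeR adjusted p = 0.0142). In OLs it read 203, 193 and 182 against 288, 237 and 288 with guide 1 and 305, 278 and 294 with guide 2 (0.55 ± 0.08; edgeR adjusted p = 0.00546). The lowest targeted library in each stage lay above the highest control library. Kcnj2 (Kir2.1), its neighbour on the chromosome, read 7.58, 9.12 and 8.48 CPM in control OPCs against 10.2 to 14.6 in targeted OPCs, and 9.31, 8.11 and 5.94 in control OLs against 12.3 to 20.6 in targeted OLs. Its log2 change was 0.70 ± 0.14 in OPCs and 1.15 ± 0.23 in OLs. The call of Kcnj2 was lost under 8 of 13 other settings in OPCs and 5 of 14 in OLs. That of Kcnj16 was lost in OPCs without guide 1 library A or B (highest adjusted p 0.0737).

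Kcna6, which had risen with differentiation, was lower in targeted cells. It read 5.81, 7.75 and 8.34 CPM in control OPCs against 2.93 to 4.86 in targeted ones, and 38.2, 40.0 and 38.1 CPM in control OLs against 23.6, 15.2 and 24.0 with guide 1 and 30.2, 24.0 and 31.7 with guide 2. The log2 changes were -0.92 ± 0.20 and -0.66 ± 0.15, and both calls were the closest to the threshold of those shared (edgeR adjusted p = 0.0466 and 0.0353). They were lost under 8 of 13 other settings in OPCs and 7 of 14 in OLs.

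**Figure D4:**
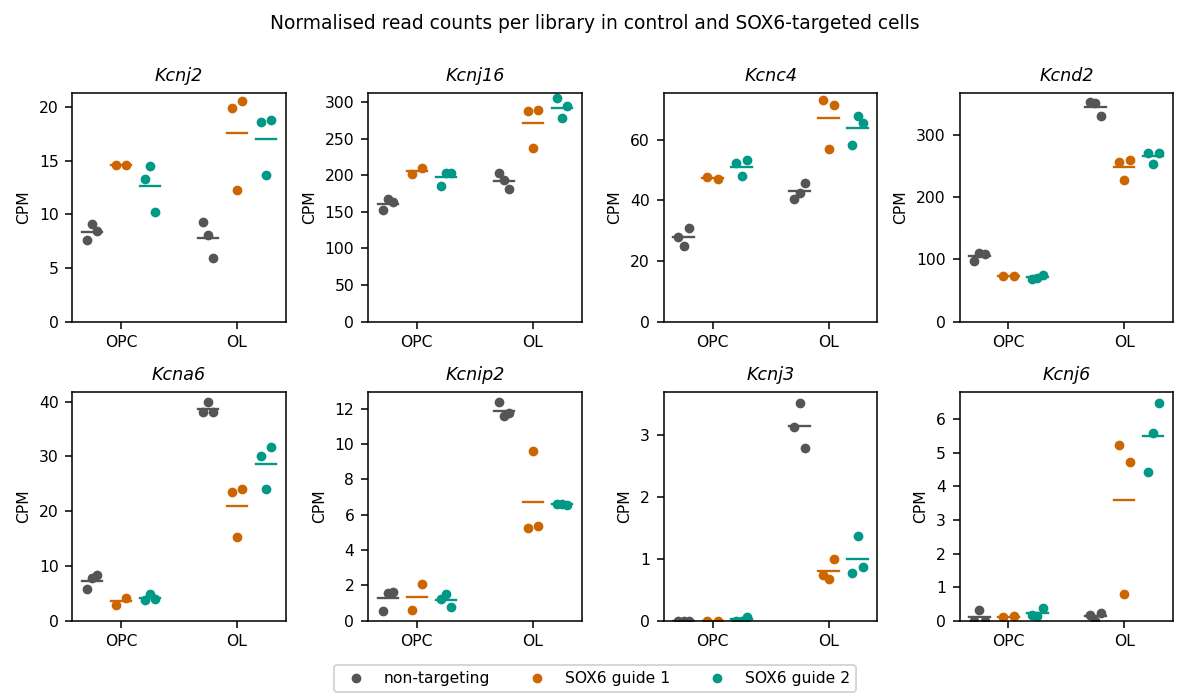
CPM per library of 8 channel genes in OPC and OL cultures with the non-targeting guide or either SOX6 guide; short lines are group means, and each panel has its own scale from 0. Targeted points lie above the controls for Kcnj2, Kcnj16 and Kcnc4 and below them for Kcnd2 and Kcna6 in both stages, and the low Kcnj6 point of guide 1 in OLs is library B.

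Another 3 genes rose in targeted OPCs. Kcna2 read 28.3, 36.5 and 33.2 CPM in controls against 49.4 to 52.5 in all targeted libraries, a log2 change of 0.64 ± 0.08 (SE; edgeR adjusted p = 0.00522). It held under each alternative tried. Kcnn3 rose by 0.55 ± 0.11 and Kcnj10 by 0.30 ± 0.06, the latter from 138, 157 and 164 CPM to 171 to 207, and each was lost under 7 of 13 other settings. Without control OPC library B, 4 of the 8 calls were lost (Kcna6, Kcnj10, Kcnj2 and Kcnn3). Without control OPC library A, Kcnj2 was lost (5 higher, 2 lower), and without library C, Kcna6 and Kcnj2 were lost and Kcnc1 was added (6 higher, 1 lower). The count over all genes went from 479 to 366, 185 and 550 without control library A, B and C. Without guide 1 OPC library A or B, 3 calls were left. Guide 2 OPC libraries A, B and C, each left out alone, gave 4, 4 and 5 calls. Astrocyte markers moved with them, 2 of 9 tested being higher, and their summed TPM was 786 to 907 in targeted OPCs against 625 to 719; their part in the rise of Kcnj10 and Kcnj16 was not tested.

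In targeted OLs, 6 further genes passed, of which 5 are described. The GIRK gene Kcnj6 had 3, 0 and 3 counts in control OLs, 85, 12 and 62 with guide 1 and 81, 98 and 112 with guide 2. Relative to the scaled library sizes used for CPM, this is a ratio of 36.3 (95% interval 16.6 to 99.5, counting error only). The edgeR adjusted p of Kcnj6 was 0.00906. The 12 counts of guide 1 library B lie above each control library and below each other targeted one. In OPCs Kcnj6 had at most 6 counts in any library and was not tested. Kcnj6 overlaps the predicted genes Gm41505 and Gm22745 on the other strand, and their reads cannot be told apart from its own.

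Kcnj3, the GIRK gene that appeared with differentiation, moved the other way: 54, 56 and 39 counts in control OLs became 12, 10 and 13 with guide 1 and 14, 24 and 15 with guide 2 (ratio 0.286, 95% interval 0.217 to 0.375; edgeR adjusted p = 0.00659). The call of Kcnj3 was lost without control library B (adjusted p 0.0544) and that of Kcnj6 without control library A (0.0543). Kcnip2 fell by 0.84 on the log2 scale (SE 0.20), and the call was lost under 9 of 14 other settings. Kcnh2 and Kcnab2 rose by 0.44 ± 0.10 and 0.41 ± 0.08, and lost the call under 10 and 4 of 14; Kcnab2 overlaps Nphp4 on the other strand. Kcnd2 overlaps Gm42583, Gm42584 and 5330437M03Rik on its own strand, and Kcna6, Kcnh2 and Kcnj3 overlap Gm26673, Gm15589 and Gm26794 on the other, so reads of these pairs could be shared.

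The OL count depended on single libraries. Without control library A, B or C in turn it was 3, 3 or 6 in place of 11, while the count over all genes went from 874 to 371, 353 or 407, and without guide 2 library A it was 7. Without guide 1 library B, which stood apart, 10 channel genes were higher and 5 lower, and 2337 genes passed in all. The 11 calls remained, and Kcnn3 (log2 change 0.59 ± 0.04), Kcnj10 (0.28 ± 0.03), Kcnn2 (0.24 ± 0.05) and Kcna2 (0.20 ± 0.04) were added, as edgeR adjusted p went to between 3.1e-05 and 0.0156. With that library, Kcna2 read 158, 173 and 169 CPM in control OLs and 191, 99.2 and 189 with guide 1, and Kcnn3 read 117, 117 and 114 against 174, 82.55 and 174. Library B was the one targeted OL library below the controls for both genes.

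Markers of neurons, oligodendrocytes and OPCs also moved with Sox6 targeting. Of 8 neuron markers tested, 3 were lower and 0 higher in targeted OLs. The list summed to 50.1 to 60.5 TPM there against 75.4 to 80.0 in controls, with Slc17a6 at 0. Most of this sum was Tubb3, at a mean of 48.2 TPM in control OLs, 35.7 with guide 1 and 34.4 with guide 2. The means of Stmn2 (0.04 against 0.27 and 0.37), Syt1 (0.22 against 0.91 and 0.86) and Gad1 (3.06 against 4.05 and 3.84) went the other way. In OPCs 3 neuron markers were lower and 1 higher (22.02 to 29.4 against 33.2 to 38.4). Of 7 oligodendrocyte markers tested in OLs, 4 were higher (1136 to 1780 TPM summed against 1225 to 1386), with Mog at 0 in guide 2 and control cells. In targeted OPCs 3 of 5 oligodendrocyte markers tested were higher (96.3 to 123 TPM summed against 64.7 to 81.9). OPC markers were lower for 3 of 6 tested in OLs (2725 to 3581 TPM against 3559 to 3727) and 1 of 6 in OPCs (3720 to 3980 against 3330 to 3970), none being at 0. The part of these shifts in the changes of the channel genes, such as the fall of Kcnj3 and Kcnip2 in OLs and the rise of Kcna2 and Kcnj10 in OPCs, was not tested. Astrocyte markers summed to 5698 to 6591 TPM in targeted OLs against 4950 to 5423, with 1 of 9 called.

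**Figure D5:**
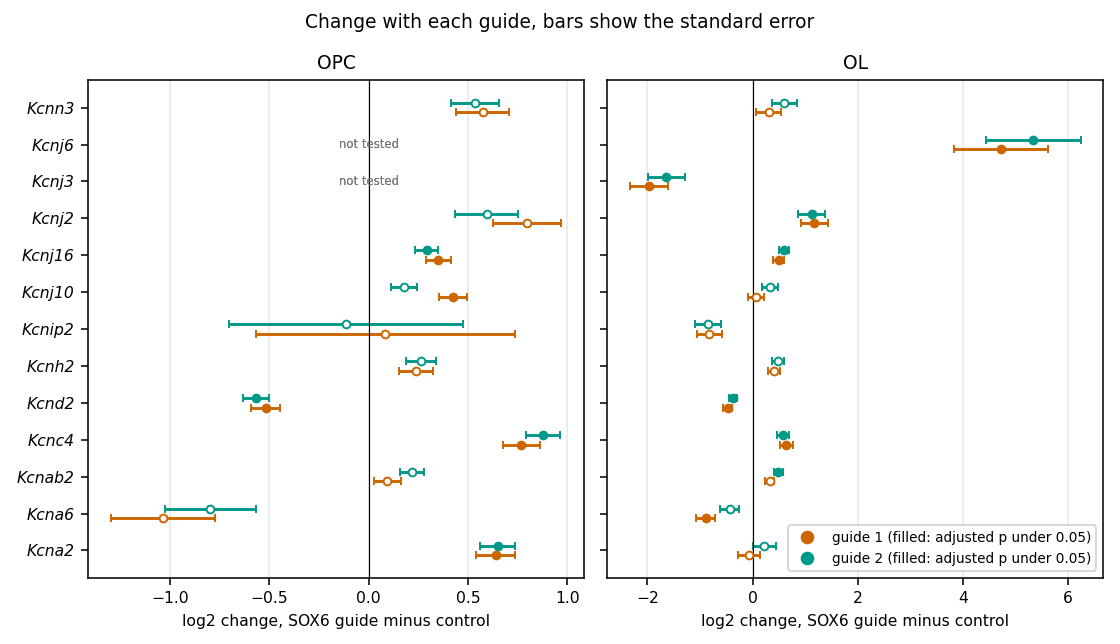
log2 change of each guide against control in OPCs (left) and OLs (right) for 13 of the channel genes called in either stage; points are the edgeR estimates, bars the standard error, and filled points have an adjusted p under 0.05. The horizontal scales differ, and the largest value is that of Kcnj6 in OLs (4.73 and 5.35).

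Fitted as separate contrasts, guide 1 gave 4 genes higher and 1 lower in OPCs, where 2.78% of all genes passed (1.32% higher, 1.47% lower), and guide 2 gave 3 and 1, where 2.04% passed (1.33% higher, 0.719% lower). In OLs guide 1 gave 4 higher and 4 lower (4.92% of all genes, 2.39% higher and 2.53% lower) and guide 2 gave 5 higher and 3 lower (4.44%, 2.31% higher and 2.13% lower). Both guides called Kcna2, Kcnc4, Kcnd2 and Kcnj16 in OPCs, and 7 genes in OLs, among them Kcnc4, Kcnd2, Kcnj16, Kcnj2, Kcnj3 and Kcnj6. The guides share the control libraries, so these are not independent.

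Whether the response differed between the stages was tested as an interaction over all 17 libraries. Of 67 channel genes none passed (edgeR, adjusted over all genes; 6 had an unadjusted p under 0.05), where 1.69% of all 14352 genes did (0.92% higher, 0.773% lower). DESeq2 called 1, Kcnj6, with a log2 difference of 4.52 and an adjusted p of 0.0252, against an edgeR adjusted p of 0.205. For Kcna2, which was called in OPCs and not in OLs, the difference was -0.54 ± 0.22 (edgeR adjusted p = 0.34), and 0.0102 without guide 1 OL library B. Kcnj16 likewise went from 0.293 to 0.0226 without that library.

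Among the 37 partner genes, 4 were higher and 2 lower of 26 tested in targeted OPCs, and 2 higher and 3 lower of 27 in targeted OLs. Gjc3 fell in both stages (log2 change -0.92 ± 0.11 and -1.30 ± 0.07). The cotransporter Slc12a2 rose in OPCs by 0.57 ± 0.04, and Lgi3 fell in OLs by 0.44 on the log2 scale (SE 0.10).

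Other channel genes known from glia were not called after targeting. Kcna1 had a log2 change of -0.39 ± 0.47 in OLs and was too low to be tested in OPCs. Kcna5, Kcnk1, Kcnip3 and Kcnab1 were not called in either stage, with SE of 0.24 to 0.84, and Kcna4 was not called in OLs. The authors' deposited table of the OPC comparison called 7 of 63 channel genes listed, against 4.51% of all 13541 genes listed. Of the 7, 6 were among the 8 here, and the other was Kcnt1 (DESeq2 adjusted p = 0.00844 there). Kcna6 and Kcnj10, called here, were listed there and not called (DESeq2 adjusted p = 0.153 and 0.0723). The authors' deposited table of the OL comparison called 8 of 62, against 7.46% of all 13344 genes listed, all 8 among the 11 here. Of the rest, Kcna6 and Kcnab2 were listed there and not called, and Kcnj6 was not listed. Kcna6 was thus called in neither of the authors' comparisons.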

How the data were processed

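Salmon 0.14.1, DESeq2 (version not given in the sources used here) and build mm10 are named, per the submitters' processing notes. For the SOX6 experiment the deposited tables, 1 for each stage, hold estimated counts and TPM by symbol; for the sorted cells the TPM the authors deposited were used. Tables of log2 fold changes, with control in the numerator, and adjusted p-values were deposited too. The poly(A) kit named in the labels does not mark strand.

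Estimated counts were rounded, genes filtered with filterByExpr (minimum count 10, minimum total 15), scaled by TMM and tested with edgeR 4.0.16 in R 4.3.3, two-sided, each stage alone; control OLs against control OPCs and the interaction used all 17 libraries in 1 fit. For sorted cells limma 3.58.1 was run on log2(TPM + 1) for genes that reached 1 TPM in 3 or more of the 6 libraries. P-values were Benjamini-Hochberg adjusted over all genes tested, threshold 0.05. SE is the change divided by the root of F in edgeR. Scripts were tested on simulated data. Alternatives were DESeq2 1.42.0, other scalings, filters and pseudocounts, a transcript length offset, and each library left out. Named genes were the 12 largest rises and falls past the threshold whose higher group averaged 1 CPM (or TPM) or more, plus 11 channel genes known from glia, the top 5 by TPM, and at most 4 partner genes a comparison. Positions are from GENCODE M21. The channel genes and lists were chosen with earlier results of these data known. Some results are not reported here.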

Additional observations from a re-analysis of the deposited data

Results flagged for a closer look

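For 7 channel genes reported here, every library of sorted OLs lay below every library of sorted OPCs. In culture every library of control OLs lay above every library of control OPCs, so the same labelled contrast went in opposite directions in the 2 sets. The genes were picked for opposite calls and no overlap in these same libraries, so the pattern is how they were chosen. Over all genes, 312 of the 4034 that passed in both were higher in control OLs and lower in sorted OLs. How many of those had no overlap was not counted, and the difference between the sets was not tested. The log2 changes (sorted, on the log2(TPM + 1) scale, then control culture) were -2.12 and 0.63 for Kcnc4, -1.74 and 1.71 for Kcnd2, and -1.64 and 0.26 for Kcnj16. They were -1.20 and 1.55 for Kcnk3, and -1.12 and 0.93 for Kcnma1. For Kcnk10 they were -0.69 and 2.95, and for Kcnn3 -0.53 and 1.60. The culture call of Kcnj16 was lost without 2 of the 17 libraries in turn.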

How the results depend on the processing

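No paired analysis was possible because the columns of the count tables carry letters that are not the labels' replicate numbers. Under the alternatives tried, 0 of the named channel gene calls turned direction. In control OLs against control OPCs 545 of 550 recomputed values kept their call, and in sorted cells 193 of 195; after Sox6 targeting 85 of 117 did in OPCs and 124 of 168 in OLs (guide 1, 36 of 50 and 55 of 88; guide 2, 28 of 40 and 41 of 88). With DESeq2, all genes called went to 816 in targeted OPCs, 1500 in targeted OLs and 525 in the interaction, where 1 channel gene was higher; the same tool gave 801 for guide 1 in OPCs, 1281 for guide 1 in OLs, 518 for guide 2 in OPCs and 1137 for guide 2 in OLs. With the transcript length offset, targeted OPCs had 237 genes called, with 3 channel genes higher and 1 lower; targeted OLs had 583 and the interaction 104. That offset gave guide 1 167 genes in OPCs and 431 in OLs, and guide 2 110 in OPCs and 328 in OLs, with 2 channel genes higher and 0 lower. The cause was not tested. Scaling by library totals moved the split over all genes in targeted OLs from 421 higher and 453 lower to 315 and 553 (guide 1 from 321 and 340 to 245 and 393, guide 2 from 310 and 287 to 237 and 350), and in the interaction from 132 and 111 to 86 and 161. A TPM minimum of 5 left 16 channel genes tested in sorted cells, 7 higher and 9 lower.

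When each library was left out in turn, targeted OPCs had 149 to 550 genes called, 2 to 6 channel genes higher and 1 to 2 lower. Targeted OLs had 353 to 2337, with 1 to 10 higher and 1 to 5 lower. Guide 1 had 7 to 614 (0 to 5 higher, 0 to 1 lower) in OPCs and 256 to 1580 (0 to 8, 1 to 5) in OLs; guide 2 had 78 to 254 (1 to 3, 1 to 1) and 212 to 2147 (0 to 11, 0 to 5). Where 1 guide 1 OPC library was left out, the other was assumed to vary like the other groups. Control OLs against OPCs had 5270 to 7486 (20 to 24, 10 to 11), the interaction 113 to 638 (0 to 1, 0 to 1), and sorted cells 5877 to 6579 (6 to 12, 11 to 20), where the filter on 3 libraries then left 31 to 33 channel genes tested.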
